A study of Mus musculus with 12 samples.

Results

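The growth arrest and cell-cycle inhibitor genes examined here are a list of 10 mouse genes: Btg1, Btg2, Cdkn1a, Cdkn1b, Cdkn2d, Gadd45a, Gadd45b, Mdm2, Trp53 and Ccng2. They were found by their symbol in the deposited table of 28987 genes, which held 9 of the 10, and Cdkn2d was not analysed here. All 9 passed the filter on low values that left 13456 genes for testing (at least 1 TPM in at least 3 libraries). TPM (scaled transcript counts) is the share that a gene takes of the transcripts in a library after division by transcript length.

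RNA was sequenced from neutrophils of FVB mice in 4 groups of 3 libraries: bone marrow of wild-type mice (BM WT), peritoneum of wild-type mice (PT WT), bone marrow of MRP8-Bcl2 mice (BM Bcl2) and peritoneum of MRP8-Bcl2 mice (PT Bcl2). In the transgenic mice the myeloid MRP8 promoter drives human BCL2, an inhibitor of cell death, and the label of the genotype is MRP8/BCL2+. All mice, controls included, had been given 2 mL of thioglycollate into the peritoneum to provoke inflammation, and the labels place collection 6 h later whereas the methods of the study name other times. The labels call the source macrophages and the study calls it neutrophils, sorted by flow cytometry. The age of the mice was not given in the sources used here, and the libraries, numbered 1 to 12 in the table, carry no mouse number. By the methods of the study both sites were sampled in each mouse, so BM and PT libraries of a genotype can share mice, and the tests between sites treat them as independent. P-values measure the spread between libraries, which may be partly technical.

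Apart from Mdm2, which counters p53, these genes have been tied to slowing or stopping cell division. BTG proteins hold back proliferation and guide the CCR4-NOT complex to shorten messenger RNA tails, and the products of Cdkn1a, Cdkn1b and Cdkn2d bind and block cyclin-dependent kinases. GADD45 proteins are induced by stress and DNA damage and act on MAP kinase signalling and repair, p53 (Trp53) switches on Cdkn1a, Mdm2, Btg2 and Gadd45a, and MDM2 marks p53 for destruction. Ccng2 encodes an unconventional cyclin associated with arrest. Neutrophils stop dividing as they mature in the marrow, and those that enter a tissue are non-dividing cells.

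Neutrophil markers as a set were present at both sites but did not move together, and Ly6g was near the floor in PT WT. The sum over 9 neutrophil genes was 77034 to 351331 TPM in BM and 15201 to 70169 TPM in PT. It was carried by S100a8 and S100a9, which were called lower in PT in both genotypes. Ly6g was called lower in WT (log2 difference -7.25, limma adjusted p = 0.00311). Its mean was 971 TPM in BM WT and 9.36 TPM in PT WT, where the libraries ranged from 0 to 14.9 TPM. In MRP8-Bcl2 the means of Ly6g were 493 TPM in BM and 81.7 TPM in PT, without a call. Csf3r had a mean of 704 TPM in BM WT and 2122 TPM in PT WT, and of 368 and 2897 TPM in MRP8-Bcl2, where it was called higher. Means of Cxcr2 and Itgam were also higher in PT in both genotypes, without a call. The mean of Mmp8 was lower in PT, also without a call, at 1968 and 128 TPM in WT and 704 and 59.5 TPM in MRP8-Bcl2. That of Mmp9 was 433 TPM in BM WT and 160 TPM in PT WT. The list medians of the log2 difference were -3.62 in WT and -0.77 in MRP8-Bcl2, against 0.22 and -1.02 for all tested genes. Retnlg, the remaining gene of the list, had a WT estimate below that WT median, also without a call. After centring, the calls of this list in MRP8-Bcl2 changed from 1 higher and 2 lower to 3 higher and 0 lower, and without library 9 to 1 higher and 0 lower. The 12 genes of immature neutrophils, among them Mpo, Elane and Ltf, summed to 19886 to 55141 TPM in BM and to 403 to 1272 TPM in PT. Mouse Bcl2 was the only readout of the transgene here, and an indirect one because the transgene is human. It stood at 0.219 to 2.37 TPM in WT and at 166 to 333 TPM in the BM Bcl2 libraries. In PT Bcl2, libraries 7 and 8 held 82.8 and 58.6 TPM and library 9 held 0.695 TPM. Library 9 was kept in the group of its label. Values without it are given for the calls and counts of the 9 genes and for most list counts that changed. Between 9735 and 14305 genes per library were above 0, with the lowest counts in PT Bcl2, and the 100 most abundant genes took 46.0 to 76.8% of TPM. TPM keeps no read total, so no counting error can be attached to a value.

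The 250 bases before the start of transcription are printed for the 3 genes called in a comparison below (Btg1, Gadd45b and Trp53) and for the upstream start of Cdkn1a, because that window holds a p53 motif. The sequences are from RefSeq (GRCm38.p6), which held all 10 genes in 11 windows, 2 of them for Cdkn1a. Capitals mark matches to 7 motifs searched on both strands.
Btg1, chr10:96616751-96617000, plus strand: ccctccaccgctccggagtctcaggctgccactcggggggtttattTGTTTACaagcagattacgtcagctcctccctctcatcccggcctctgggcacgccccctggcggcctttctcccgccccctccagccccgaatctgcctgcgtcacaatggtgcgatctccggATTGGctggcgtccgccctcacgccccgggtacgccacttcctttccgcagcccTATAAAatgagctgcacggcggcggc
Gadd45b, chr10:80929841-80930090, plus strand: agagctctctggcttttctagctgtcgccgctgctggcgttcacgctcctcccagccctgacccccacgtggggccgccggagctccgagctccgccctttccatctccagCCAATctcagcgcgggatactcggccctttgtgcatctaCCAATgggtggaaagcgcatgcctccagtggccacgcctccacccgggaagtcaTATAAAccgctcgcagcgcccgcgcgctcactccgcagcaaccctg
Trp53, chr11:69580109-69580358, plus strand: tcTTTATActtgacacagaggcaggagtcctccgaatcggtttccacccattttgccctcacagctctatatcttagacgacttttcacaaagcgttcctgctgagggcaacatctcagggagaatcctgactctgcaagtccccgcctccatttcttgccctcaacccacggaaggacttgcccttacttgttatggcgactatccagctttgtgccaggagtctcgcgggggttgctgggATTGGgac
Cdkn1a, chr17:29090729-29090978, plus strand: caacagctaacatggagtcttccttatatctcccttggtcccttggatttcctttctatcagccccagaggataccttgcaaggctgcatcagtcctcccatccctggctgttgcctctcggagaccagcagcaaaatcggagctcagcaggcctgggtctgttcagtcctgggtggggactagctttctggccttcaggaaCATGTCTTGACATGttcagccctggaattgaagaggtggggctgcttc

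The Btg1 window held TGTTTAC, the FOXO motif, with its first base at position -204 from the start, the CCAAT box as ATTGG at -80 and TATAAA at -26. The FOXO motif occurs in 3.17% of 32851 mouse windows of the same length and was also present in the Mdm2 window, at -153. The Gadd45b window held CCAAT at -139 and -100 and TATAAA at -46. The Trp53 window held TATAAA on the reverse strand, as TTTATA at -248, and ATTGG at -8. TATAAA occurs in 12.4% of windows and CCAAT in 33.8%, and they were present in 3 and 8 of the 11 windows, as a description with no test. The p53 motif, CATGNNNNNNCATG, occurs in 0.490% of windows and lay at -48 in the upstream window of Cdkn1a. The CRE motif TGACGTCA, found in 1.55% of windows, lay at -166 in the Btg2 window. The AP-1 motif TGANTCA (6.75% of windows) and the NF-kB motif GGGNNTTTCC (1.41%) were in none of the 11 windows. The 7 motifs share no letters in these windows, and a match is a description of sequence only.

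**Figure D1:**
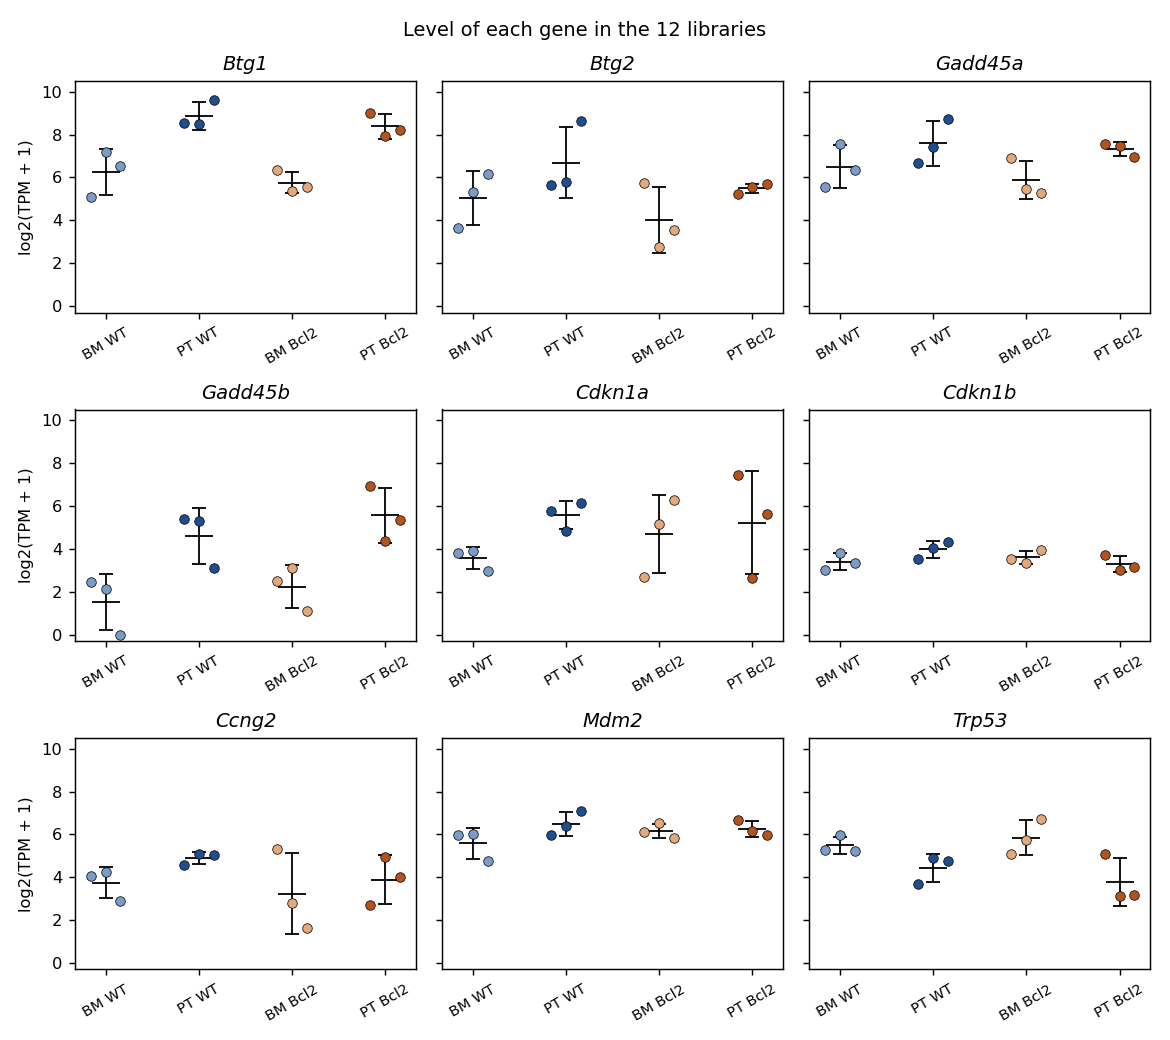
Level of the 9 genes as log2(TPM + 1) on the vertical axis in the 4 groups; each point is 1 library, the horizontal bar is the mean and the whiskers are 1 SD (n = 3). Btg1 is higher in all 6 PT libraries than in all 6 BM libraries, whereas Cdkn1b and Mdm2 overlap between all groups that the axis sets side by side.

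Btg1 was the most abundant of the 9 genes in the peritoneum. The gene lies on chromosome 10, 96617006-96622809, plus strand (GRCm38, as are all positions of genes below). It stood at 33.4, 147 and 90.6 TPM in libraries 4, 5 and 6 of BM WT and at 372, 356 and 792 TPM in libraries 10, 11 and 12 of PT WT. In MRP8-Bcl2 mice it stood at 79.5, 40.9 and 46.2 TPM in BM libraries 1, 2 and 3 and at 518, 242 and 294 TPM in PT libraries 7, 8 and 9. The lowest PT value was above the highest BM value of either genotype. The means were ordered as PT WT (507 ± 247 TPM, SD, n = 3), PT Bcl2 (351 ± 147), BM WT (90.4 ± 56.9) and BM Bcl2 (55.5 ± 20.9), and only PT Bcl2 and BM WT, neighbours in this order, did not overlap. From BM to PT, Btg1 rose by 2.61 on the log2 scale in WT (SE 0.60, limma with Benjamini-Hochberg adjusted p = 0.0315) and by 2.62 in MRP8-Bcl2 (SE 0.60, adjusted p = 0.00851), about 6.09-fold and 6.16-fold.

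The WT call of Btg1 was near the threshold. It was lost without library 4 (2.02, limma adjusted p = 0.112), 6 (2.73, 0.0698), 10 (2.78, 0.0835), 11 (2.81, 0.0643) or 12 (2.23, 0.108), and the change kept its sign in each. The MRP8-Bcl2 call was kept in all 12 fits that left out 1 library, and without library 9 the change was 2.71 (adjusted p = 0.0180). Btg1 shares 4.08% of its 31-base words with other transcripts, chiefly the pseudogene Gm14519, which is listed at 0 in all 12 libraries.

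Btg2, the paralogue of Btg1 and a target of p53, was lower and more variable. It lies on chromosome 1, 134075170-134079120, minus strand. It stood at 11.6, 38.9 and 69.9 TPM in BM WT and at 49.3, 55.2 and 393 TPM in PT WT. In BM Bcl2 it stood at 53.2, 5.82 and 10.6 TPM, and in PT Bcl2 at 36.7, 45.8 and 50.2 TPM. Library 12 alone held the high PT WT value, and the BM and PT ranges overlapped in both genotypes. The log2 differences were 1.65 in WT (95% interval -0.29 to 3.60, limma adjusted p = 0.385) and 1.47 in MRP8-Bcl2 (-0.48 to 3.41, adjusted p = 0.256), neither called. Without library 12 the WT difference was 0.69. Btg2 shares no 31-base word with another transcript.

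Gadd45b, a stress sensor that binds MAP kinase kinases, had the largest fitted difference of the 9 genes in both genotypes. It lies on chromosome 10, 80930073-80932204, plus strand. It was listed at 4.41, 3.30 and 0 TPM in BM WT and at 40.5, 38.9 and 7.62 TPM in PT WT. In BM Bcl2 it was at 4.6, 7.69 and 1.17 TPM and in PT Bcl2 at 122, 19.7 and 39.8 TPM. In each genotype the PT libraries were all above the BM libraries, although library 12 (PT WT) was just below library 2 (BM Bcl2). The rise passed the test in MRP8-Bcl2 (3.31 on the log2 scale, SE 0.93, limma adjusted p = 0.0228), while in WT the difference was 3.09 (SE 0.93, adjusted p = 0.0939). Without library 3 the MRP8-Bcl2 difference was 2.75 (adjusted p = 0.0978), without library 7 it was 2.62 (0.0802), and without library 9 it was 3.42 (0.0422). These fitted differences depend on the pseudocount because 1 library is listed at 0 and others are low: with 0.1 in place of 1 TPM they were 4.32 in WT and 3.67 in MRP8-Bcl2 (adjusted p = 0.0698).

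Gadd45a, the DNA damage-inducible member of the same family, was more abundant than Gadd45b in every library. It lies on chromosome 6, 67035096-67037457, minus strand. It stood at 46.7, 187 and 80.6 TPM in BM WT and at 99.9, 171 and 420 TPM in PT WT, with overlap. In BM Bcl2 it stood at 118, 42.8 and 38 TPM and in PT Bcl2 at 186, 178 and 125 TPM, without overlap. The log2 differences, 1.10 in WT (95% interval -0.31 to 2.52, limma adjusted p = 0.430) and 1.46 in MRP8-Bcl2 (0.04 to 2.87, adjusted p = 0.124), were not called. Gadd45a shares 17.0% of its 31-base words with the transcript E230016M11Rik, at 0 to 8.90 TPM, so its level is less certain.

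The CDK inhibitors showed no called change. Cdkn1a, the inhibitor that p53 induces, lies on chromosome 17, 29090976-29100727, plus strand. It stood at 13.2, 13.8 and 6.84 TPM in BM WT and at 53.7, 27.7 and 69.4 TPM in PT WT, without overlap, and the log2 difference was 2.02 (95% interval -0.23 to 4.28, limma adjusted p = 0.356). In BM Bcl2 it ranged over 5.53, 34.1 and 75.8 TPM and in PT Bcl2 over 172, 5.25 and 47.7 TPM. The PT Bcl2 libraries spanned the whole range of the gene, and the difference of 0.53 had an interval of -1.73 to 2.78. Cdkn1a shares 9.78% of its 31-base words with other transcripts.

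Cdkn1b, which holds cells in a resting state, had the narrowest range of the 9 genes over the 12 libraries, 7.08 to 19.2 TPM. It lies on chromosome 6, 134920401-134925513, plus strand. It stood at 7.08, 13 and 9.20 TPM in BM WT, at 10.7, 15.5 and 19.2 TPM in PT WT, at 10.4, 9.08 and 14.5 TPM in BM Bcl2, and at 12, 7.11 and 7.75 TPM in PT Bcl2. All 4 ranges overlapped. The log2 differences from BM to PT were 0.58 in WT (95% interval -0.70 to 1.87) and -0.32 in MRP8-Bcl2 (-1.60 to 0.97), and the latter turned positive under each other scaling between libraries.

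Trp53, which encodes p53, was the only gene of the 9 with an estimate below 0 from BM to PT in both genotypes on each of the 4 scalings tried. It lies on chromosome 11, 69580359-69591873, plus strand. It stood at 38, 60.9 and 37.0 TPM in BM WT and at 11.9, 28.7 and 25.8 TPM in PT WT. In BM Bcl2 it stood at 33.3, 51.8 and 104 TPM and in PT Bcl2 at 33.1, 7.63 and 8.06 TPM. The PT libraries lay below the BM libraries of the same genotype, in MRP8-Bcl2 by a narrow margin between library 7 (33.1) and library 1 (33.3). The means were ordered as BM Bcl2 (63.1 ± 36.7 TPM, SD, n = 3), BM WT (45.3 ± 13.5), PT WT (22.1 ± 9.01) and PT Bcl2 (16.2 ± 14.6), and only BM WT and PT WT, neighbours in this order, did not overlap.

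In MRP8-Bcl2, Trp53 fell by 2.05 on the log2 scale (SE 0.68, limma adjusted p = 0.0438), and in WT the difference was -1.05 (SE 0.68, adjusted p = 0.469). The MRP8-Bcl2 call was fragile. It was lost without library 2 (adjusted p = 0.0953), 3 (0.178), 8 (0.131) or 9 (-1.75, 0.116), and also without library 4, 5 or 11, which only lend their spread to the fit (0.0503 to 0.0556). Of 8 other settings, 6 ended the call: centring on the median (-0.46, adjusted p = 0.674), quantile normalization (-1.33, 0.133), removal of the 100 most abundant genes (-1.62, 0.0796), no filter on low values (0.0608), no trend (0.0502) and a fit of only the compared groups (0.104). Trp53 shares 10.2% of its 31-base words with other transcripts, chiefly the pseudogene Trp53-ps, which is listed at 0 in all 12 libraries.

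Mdm2, the ubiquitin ligase that degrades p53 and is itself a p53 target, lies on chromosome 10, 117688875-117710758, minus strand. It stood at 62.7, 63.2 and 26.0 TPM in BM WT, at 61.8, 81.9 and 133 TPM in PT WT, at 68.6, 90.6 and 56.9 TPM in BM Bcl2, and at 102, 69.4 and 61.8 TPM in PT Bcl2. All 4 ranges overlapped. The log2 differences from BM to PT were 0.89 in WT (95% interval -0.26 to 2.03, limma adjusted p = 0.436) and 0.10 in MRP8-Bcl2 (-1.05 to 1.24, adjusted p = 0.911).

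Ccng2, the arrest-associated cyclin and a FOXO target, lies on chromosome 5, 93267257-93276231, plus strand. It stood at 15.5, 18.1 and 6.52 TPM in BM WT and at 22.9, 33.3 and 32.3 TPM in PT WT, without overlap. In BM Bcl2 it stood at 38.5, 5.89 and 2.07 TPM and in PT Bcl2 at 5.59, 30.2 and 15.0 TPM, with wide overlap. The log2 differences were 1.17 in WT (95% interval -0.70 to 3.04, limma adjusted p = 0.546) and 0.66 in MRP8-Bcl2 (-1.21 to 2.53, adjusted p = 0.613).

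**Figure D2:**
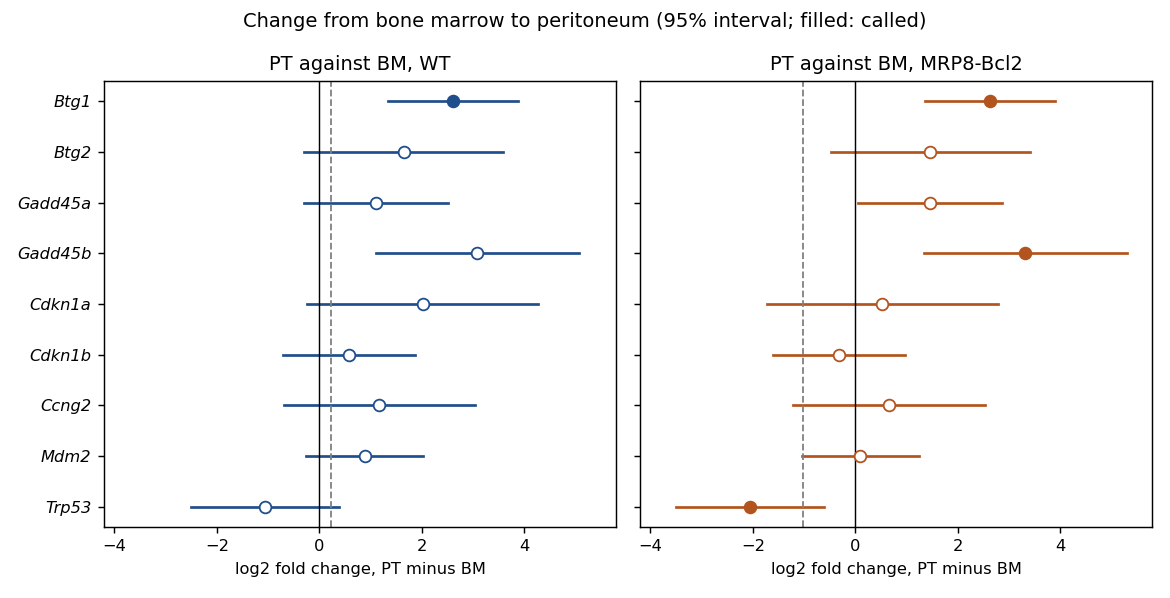
Log2 fold change from BM to PT (horizontal axis) of the 9 genes in WT (left) and MRP8-Bcl2 (right), with 95% intervals from limma; filled points were called and the dashed line is the median of all 13456 tested genes. Btg1 is filled in both panels, Gadd45b and Trp53 in MRP8-Bcl2.

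Counted together, 1 of the 9 genes was called higher and 0 lower in PT WT than in BM WT, where 1.59% of all tested genes were called higher and 1.22% lower (limma, adjusted p under 0.05 with a fold of 2 or more). At an unadjusted p under 0.05, 2 were higher (10.2% of all tested genes) and 0 lower (6.32%). The ranges of the 3 and 3 libraries were apart for 4 genes that were higher (Btg1, Gadd45b, Cdkn1a and Ccng2) and 1 that was lower (Trp53), against 14.9% and 7.97% of all tested genes. The median log2 difference of the 9 was 1.17, and that of all tested genes was 0.22.

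In MRP8-Bcl2, 2 genes were called higher (Btg1 and Gadd45b) and 1 lower (Trp53), where 2.31% of all tested genes were called higher and 19.1% lower. Without library 3 the count of called genes was 1 in place of 3, and without library 9 it was 2. The differences of the 6 uncalled genes without library 9 ran from -0.24 for Cdkn1b to 1.64 for Gadd45a, with limma adjusted p-values of 0.139 and above. At an unadjusted p under 0.05, 3 were higher (4.53% of all tested genes) and 1 lower (32.7%). The ranges were apart for 3 that were higher (Btg1, Gadd45a and Gadd45b) and for Trp53, which was lower, against 5.18% and 32.6% of all tested genes. The median log2 difference of the 9 was 0.66 against -1.02 for all tested genes, so most of these genes stood above a background that leaned towards lower values. The decrease of Trp53 lay on the side where many genes were called.

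The MRP8-Bcl2 background moved with the scaling between libraries. Centring each library on its median moved each WT estimate by -0.22 and each MRP8-Bcl2 estimate by 1.59. After centring, 4 genes were called higher in MRP8-Bcl2, Gadd45a (3.04, limma adjusted p = 0.0175) and Mdm2 (1.69, 0.0421) in addition to Btg1 (4.21, 0.00323) and Gadd45b (4.90, 0.00660), and 0 lower, while in WT 0 were called. Btg1, Gadd45b, Gadd45a, Btg2, Cdkn1a, Ccng2 and Mdm2 had estimates above 0 in both genotypes on all 4 scalings, and Trp53 had estimates below 0.

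**Figure D3:**
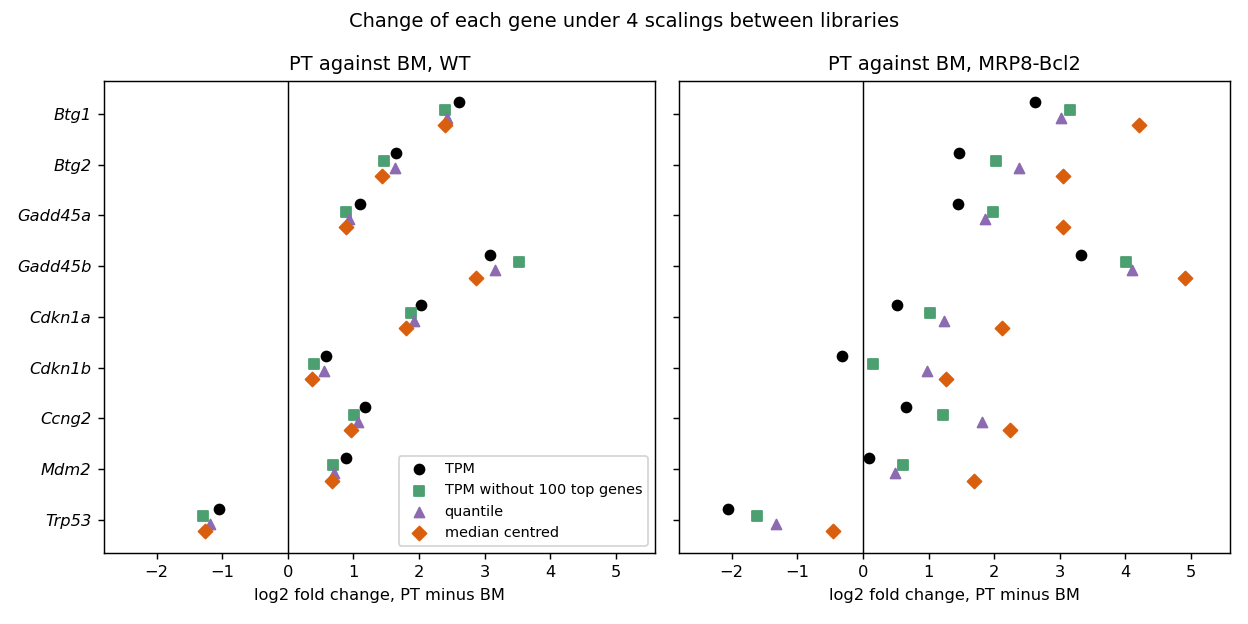
Log2 fold change from BM to PT (horizontal axis) of the 9 genes under 4 scalings between libraries: TPM as deposited, TPM without the 100 most abundant genes, quantile normalization and centring on the median. The WT points of a gene stay close together, whereas the MRP8-Bcl2 points spread, for Trp53 from -2.05 to -0.46.

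Differences between genes of the same library do not depend on a shift common to the library on the log2(TPM + 1) scale. A common factor on TPM cancels only in part for low genes, because of the added 1. The pairs were chosen after the values had been seen, so the differences are given as a description. Btg1 minus Trp53, on the log2(TPM + 1) scale, was -0.18, 1.26 and 1.27 in BM WT and 1.23, -0.33 and -1.15 in BM Bcl2. It was 4.86, 3.58 and 4.89 in PT WT and 3.93, 4.81 and 5.03 in PT Bcl2. All 6 PT libraries, library 9 included, lay above all 6 BM libraries.

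Mdm2 minus Trp53 was also apart, at -0.86 to 1.02 in the 6 BM libraries and at 1.48 to 3.03 in the 6 PT libraries. Its mean was 0.09 ± 0.60 in BM WT and 2.03 ± 0.48 in PT WT (SD, n = 3), and 0.32 ± 1.03 in BM Bcl2 and 2.47 ± 0.77 in PT Bcl2. Thus the messenger RNA of the ligase exceeded that of its substrate per length in each PT library, and in the BM libraries the order varied. Btg1 minus Mdm2 was -1.13 to 1.76 in BM and 1.79 to 2.57 in PT, which is apart by a narrow margin. Btg1 minus Btg2, Gadd45b minus Gadd45a and Cdkn1a minus Cdkn1b overlapped between BM and PT.

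**Figure D4:**
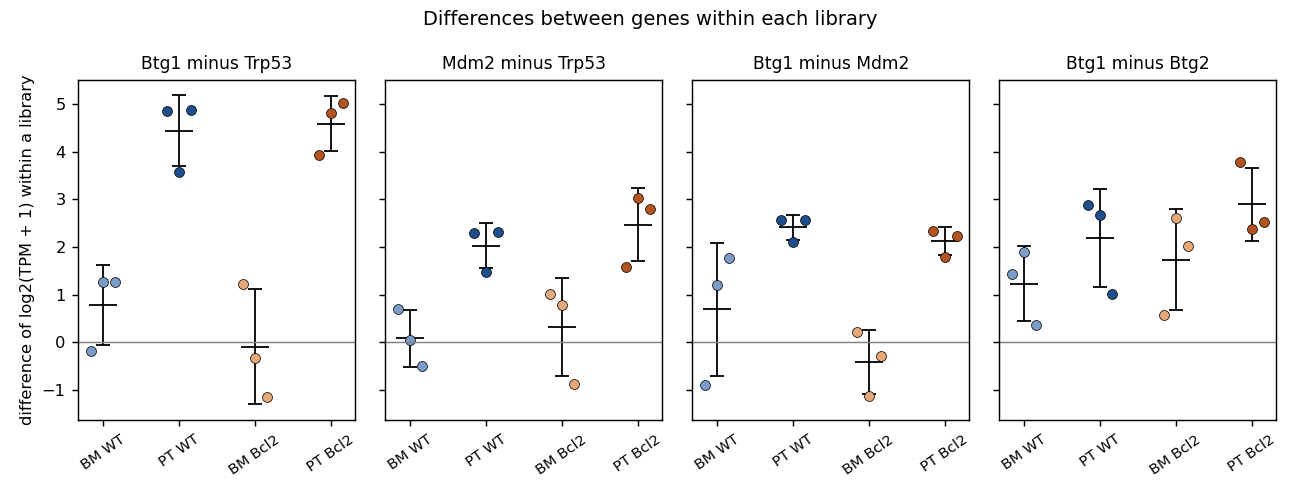
Difference of log2(TPM + 1) between a pair of genes within the same library (vertical axis) in the 4 groups; points are libraries, bars are means and whiskers are 1 SD (n = 3). For Btg1 minus Trp53 the 6 PT points lie from 3.58 to 5.03 and the 6 BM points from -1.15 to 1.27, whereas Btg1 minus Btg2 overlaps.

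As shares of the summed TPM of the 9 genes, Btg1 took 14.4 to 27.7% in WT marrow and 41.8 to 51.5% in WT peritoneum, with 13.2 to 19.3% and 40.0 to 45.3% in MRP8-Bcl2. Trp53 took 11.2 to 16.3% in WT marrow and 1.36 to 3.56% in WT peritoneum, with 8.08 to 29.8% and 1.24 to 2.79% in MRP8-Bcl2. Cdkn1b also took a smaller share in PT, 1.01 to 1.92% in WT and 1.01 to 1.19% in MRP8-Bcl2, than in BM, 2.38 to 3.04% and 2.52 to 4.16%. A share falls where another gene of the sum rises, and the rise of Btg1 enters each of them.

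The change from BM to PT was not shown to differ between the genotypes for any of the 9 genes. In the interaction test 0 of 9 were called, with 0 at an unadjusted p under 0.05 (16.9% of all tested genes), and limma adjusted p-values ran from 0.571 to 0.992, where 0.0149% of all tested genes were called. The interval is wide: for Btg1 the difference between the MRP8-Bcl2 change and the WT change was 0.02 (95% interval -1.78 to 1.81), for Gadd45b 0.23 (-2.58 to 3.03) and for Trp53 -1.0 (-3.05 to 1.05). The Trp53 call in MRP8-Bcl2 and its absence in WT therefore do not amount to a difference between genotypes. The largest estimate was that of Cdkn1a, -1.50 (-4.69 to 1.69). Without library 9, 0 were called and the estimates ran from -1.69 for Cdkn1a to 0.53 for Gadd45a, with Trp53 at -0.69.

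Between genotypes at the same site, 0 of the 9 genes were called. In BM the log2 differences of MRP8-Bcl2 minus WT ran from -1.02 for Btg2 to 1.14 for Cdkn1a (limma adjusted p = 0.774 and 0.785), and 0.0223% of all tested genes were called. In PT they ran from -1.21 for Btg2 to 0.96 for Gadd45b (adjusted p = 0.578 and 0.667), and 0.0297% of all tested genes were called. None passed an unadjusted p of 0.05 in either site, where 7.36% (BM) and 12.7% (PT) of all tested genes did. For Btg1 the intervals were -1.79 to 0.75 in BM and -1.77 to 0.77 in PT, and for Trp53 -1.10 to 1.80 and -2.10 to 0.80. Without library 9, 0 members were called in PT, Trp53 went from -0.65 to -0.34 and Gadd45a from -0.27 to -0.086, while over all tested genes 2 were called higher and 15 lower in place of 0 and 4.

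Across the 12 libraries, the genes of similar level profile were sought among 6141 genes with a mean of at least 10 TPM, as a description, since all profiles share the step from BM to PT and the library scaling. Btg1 was most like Gcnt2 (Pearson r 0.98) and St3gal6 (0.98), which encode glycosyltransferases, and of the other members most like Gadd45a (0.87). Gadd45b was most like Per2 (0.95) and Mllt6 (0.95), and Trp53 most like Bscl2 (0.94) and Cbx1 (0.93). Gadd45a was most like Pdlim7 (0.97) and ENSMUSG00000078781 (0.96), Btg2 like Kctd12 (0.92) and Il17ra (0.92), and Cdkn1a like Vamp4 (0.92) and Usp9x (0.91). For Mdm2 the nearest genes were Rcbtb2 (0.91) and Lrrfip2 (0.91), for Ccng2 Nt5c3b (0.91) and 1600010F14Rik (0.87), and for Cdkn1b Ssbp2 (0.90) and Trps1 (0.88). The highest r of Trp53 with another member was 0.42, with Cdkn1b.

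Where cyclins and CDKs, which drive division, were called on the TPM scale, they were lower in PT. In WT the only cyclin called was Ccnb1, and no CDK was called. The cyclin gene Ccnd2 had estimates above 0, at 1.72 in WT and 2.43 in MRP8-Bcl2 (limma adjusted p = 0.397 and 0.0840), without a call. Of 21 tested cyclins, CDKs and pocket proteins, 3 were called lower and 0 higher in PT WT: Ccnb1, the mitotic cyclin, from 34.2 ± 25.5 to 0.691 ± 0.740 TPM (SD, n = 3; log2 difference -4.10, SE 0.84, limma adjusted p = 0.0179), the proliferation marker Mki67 (-3.05, 0.0294) and the phosphatase gene Cdc25a (-2.95, 0.0485). In MRP8-Bcl2, 15 of the 21 were called lower and 0 higher, where 19.1% of all tested genes were called lower (1.22% in WT), led by Mki67 (-4.48, 0.00135), Ccna2 (-5.45, 0.00142), Cks1b (-5.33, 0.00223) and Cdk1 (-5.40, 0.00284). The 15 also hold Rb1 and Rbl2, pocket protein genes that restrain division, which are singled out here after their values were seen. The list medians were -0.42 in WT and -3.21 in MRP8-Bcl2, against 0.22 and -1.02 for all tested genes. The counts moved with the scaling and the libraries. After centring 4 were called lower in WT and 6 in MRP8-Bcl2, with 1 higher, and after quantile normalization 5 and 8, with 1 higher in MRP8-Bcl2. The WT count was 0 without library 4, 6, 10 or 11 and 1 without library 12, the MRP8-Bcl2 count was 9 without library 2 and 10 without library 3, and without library 9 the counts were 2 and 15. Of the 12 fits without 1 library, Ccnb1 lost its WT call in 4, Mki67 in 5 and Cdc25a in 9, while Mki67, Ccna2, Cks1b and Cdk1 kept their MRP8-Bcl2 calls in all 12. The genes of immature neutrophils moved with this list: 10 of 12 were called lower in WT and 12 of 12 in MRP8-Bcl2, with and without library 9.

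Among 17 tested p53 target genes outside the members, 1 was called higher and 0 lower in PT WT, where 1.59% of all tested genes were called higher. This was Pmaip1, which encodes the death-promoting protein NOXA, at 3.02 ± 0.835 TPM in BM WT and 52.5 ± 9.02 TPM in PT WT (SD, n = 3; log2 difference 3.74, limma adjusted p = 0.0112), and it lost the call without library 10. In MRP8-Bcl2 3 were called higher, Pmaip1 (3.31, adjusted p = 0.00621), the kinase gene Plk2 (3.93, 0.00634) and the death receptor gene Fas (4.09, 0.00704), and 1 lower, Rrm2b, a ribonucleotide reductase subunit (-2.48, 0.0495). Over all tested genes 2.31% were called higher and 19.1% lower, so the 1 lower call is under the background. The 3 higher calls were made in all 12 fits without 1 library and on all 4 scalings, and Rrm2b was called only with TPM as deposited and in 3 of the 12 fits. The list medians were 0.95 in WT and -0.38 in MRP8-Bcl2, and the latter was 1.21 after centring.

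FOXO factors and targets, 12 genes of a pathway known for arrest and survival control, held 2 called higher in PT WT and 4 in MRP8-Bcl2, with 0 lower in both, where 1.59% and 2.31% of all tested genes were called higher. Bcl2l11, which encodes the death-promoting protein BIM, rose from 7.68 ± 5.66 to 134 ± 44.1 TPM in WT (SD, n = 3; log2 difference 4.23, limma adjusted p = 0.00456), and Txnip, a brake on glucose uptake, by 3.09 (0.0110). In MRP8-Bcl2, Txnip rose by 3.00 (0.00388), Bcl2l11 by 2.93 (0.00877), the quiescence factor gene Klf2 by 2.77 (0.0179) and the PI3-kinase inhibitor gene Pik3ip1 by 2.66 (0.0418). Bcl2l11 kept its call in all 12 fits without 1 library in both genotypes, whereas Pik3ip1 lost it in 7. Without library 4, 1 was called in WT, and without library 3 or library 9, 2 were called in MRP8-Bcl2. The list medians were 0.97 and 1.20. After centring 8 were called higher in MRP8-Bcl2 with a median of 2.78, and with the 100 most abundant genes removed, Txnip among them, 1 was called in WT and 3 in MRP8-Bcl2.

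The remaining 4 lists held 0 calls in WT. Their calls in MRP8-Bcl2 were all lower, where 19.1% of all tested genes were called lower, so that 3 of 15 p53 regulators is near that background and 1 of 10 GADD45 kinase partners is under it. Of 8 tested further members of the same families, 3 were called lower in PT Bcl2: the CDK phosphatase gene Cdkn3 (-4.70, limma adjusted p = 0.00512), the CDK inhibitor gene Cdkn2c (-3.81, 0.00957) and the Mdm2 homologue Mdm4 (-1.98, 0.0262). Of 15 p53 regulators 3 were lower, the kinase gene Hipk2 (-2.8, 0.00533), the acetyltransferase gene Kat5 (-2.88, 0.0153) and again Mdm4. Of 12 CCR4-NOT genes and BTG partners 4 were lower, Cnot9 (-3.29, 0.00672), Prmt1 (-2.49, 0.0272), Pabpc1 (-1.48, 0.0431) and Cnot7 (-2.64, 0.0466). Of 10 GADD45 kinase partners 1 was lower, Map3k4 (-2.24, 0.0221). After centring, these counts of lower genes in MRP8-Bcl2 were 1, 0, 0 and 0, with 1 of the further family members and 1 of the p53 regulators called higher, and the median of the CCR4-NOT list turned from -1.57 to 0.02. Without library 3 or 8, 1 of the p53 regulators was called lower. Of the CCR4-NOT list, 1 was called lower without library 3 and 2 without library 2, 5, 8, 9 or 11, and of the kinase partners 0 without library 2, 3, 7 or 9. In the interaction and in both comparisons between genotypes, 0 genes of these 7 lists were called.

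**Figure D5:**
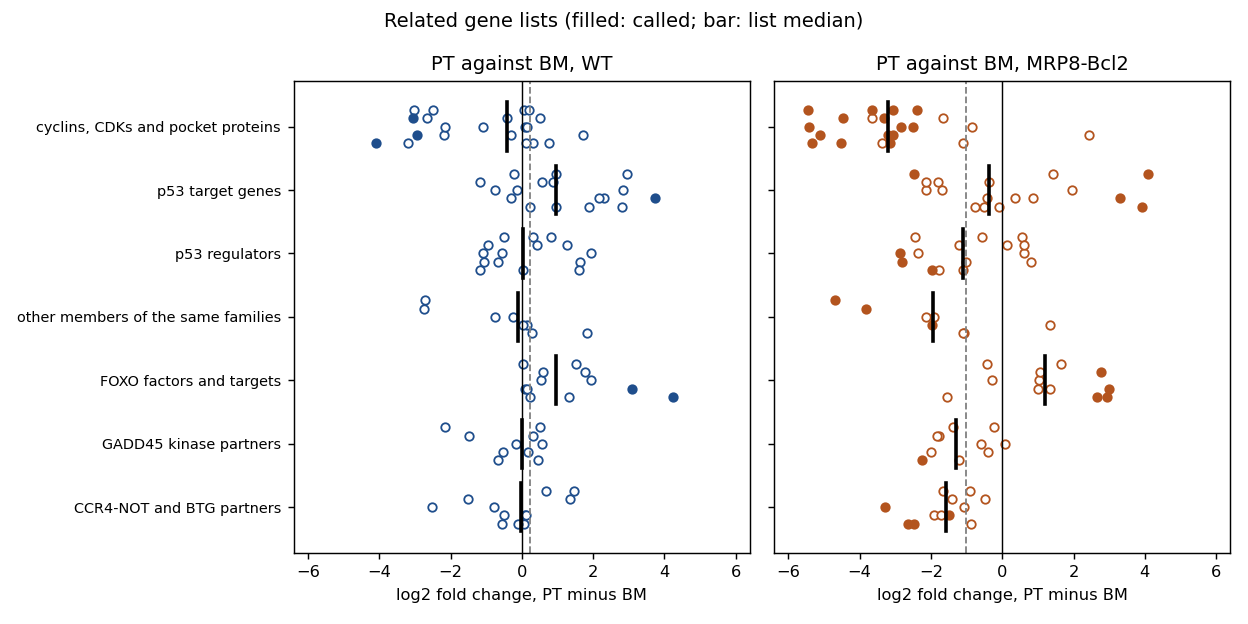
Log2 fold change from BM to PT (horizontal axis) of each tested gene of 7 related lists in WT (left) and MRP8-Bcl2 (right); filled points were called, black bars are list medians and the dashed line is the median of all 13456 tested genes. The list of cyclins, CDKs and pocket proteins has 15 filled points below 0 in MRP8-Bcl2, and FOXO factors and targets have 4 above 0.

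Markers of other cells moved between sites as well. The 7 B cell genes, none at 0 throughout a group, had WT sums of 90.0 to 287 TPM (BM) and 656 to 1512 TPM (PT), and MRP8-Bcl2 sums of 38.8 to 262 TPM (BM) and 253 to 857 TPM (PT). The 11 macrophage genes had WT sums of 108 to 223 TPM (BM) and 232 to 401 TPM (PT), and MRP8-Bcl2 sums of 48.6 to 219 TPM (BM) and 181 to 715 TPM (PT), mostly Cd68, with Gata6 at 0 in all libraries of 3 groups. The 7 erythroid genes had sums of 70.8 to 1376 TPM in BM and 0.549 to 9.26 TPM in PT. The 6 T cell genes summed to 7.27 to 177 TPM over all libraries, the 5 eosinophil genes to 1.63 to 34.9 TPM, and the 7 mast cell genes to 4.91 to 680 TPM, highest in PT WT. Called genes were 0 of the macrophage, T cell and eosinophil lists in either genotype, 1 higher in MRP8-Bcl2 of the B cell list, 1 higher in WT of the mast cell list, and 3 and 4 lower of the erythroid list. Over all tested genes, 1.59% (WT) and 2.31% (MRP8-Bcl2) were called higher, and 1.22% and 19.1% lower. After centring, 2 macrophage, 2 eosinophil, 3 B cell and 3 mast cell genes were called higher in MRP8-Bcl2. After quantile normalization these counts were 1, 2, 2 and 0. Without library 9, MRP8-Bcl2 calls were 1 higher and 1 lower (B cell), 1 higher (mast cell) and 3 lower (erythroid). In WT 1 macrophage gene was then called higher. The part of these cells in the levels of Btg1, Gadd45b and Trp53 was not tested. In such bulk libraries, fewer cells of a kind and less RNA per cell cannot be told apart.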

How the data were processed

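RNA was taken from sorted neutrophils of 12 libraries in 4 groups. The authors amplified cDNA, sequenced paired-end reads, analysed them with AltAnalyze at default settings and deposited each library's log2(TPM + 1) values with no scaling other than TPM itself. The version and genome build are not given in the sources used here. The table also holds 4 comparisons by the authors (fold changes and p-values), which were not used, nor were 6 other files of group averages, marker scores, a summary and 1 library that nothing names. Columns were assigned to groups by the deposited names.

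Genes that reached 1 TPM in 3 or more libraries were fitted on log2(TPM + 1) with limma 3.58.1 in R 4.3.3, all 12 libraries in 1 fit with a trend on the mean. The call required an adjusted p (Benjamini-Hochberg, over all 13456 genes) under 0.05 and a fold of 2 or more, and the interaction at the adjusted p alone. The fold is on the log2(TPM + 1) scale and understates changes of low genes. Each comparison between sites in 1 genotype shares libraries with the comparisons between genotypes. The procedure was tested on simulated data.

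The members and lists were chosen with earlier results of these data known. Named were all members with every library, of each list those called (at most 4, by adjusted p), and for each member the 2 genes of highest Pearson r over the 12 libraries. Lists covered cell-cycle, p53, FOXO, GADD45 and CCR4-NOT genes and markers of other cells. Positions are from GENCODE (GRCm38) and promoters from RefSeq. Words of 31 bases were compared among all annotated transcripts. Alternatives were a pseudocount of 0.1, other filters, other scalings, no trend, fits of the compared groups alone, the adjusted p alone and fits without each library. TPM keeps no depth, so the precision rests on the 3 libraries per group.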

Additional observations from a re-analysis of the deposited data

How the results depend on the processing

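No paired analysis was possible because the library columns carry no replicate or mouse number, although both sites were sampled in each mouse and the sample titles number the replicates. The members called in WT fell from 1 to 0 with no filter on low values, with centring, without the trend and in a fit of only the compared groups, and ranged from 0 to 1 with 1 library left out. In MRP8-Bcl2 they ranged from 1 (without library 3) to 3 with 1 library left out, and from 2 to 4 (centring) over the other settings, Trp53 losing its call in 6 of them and Gadd45b with a pseudocount of 0.1. Counts of 0 in the interaction and between genotypes stayed at 0 in each alternative run. No call of a member reversed. The estimates that changed sign were all uncalled. With centring, quantile normalization and removal of the 100 most abundant genes in turn, the BM to PT difference of Cdkn1b in MRP8-Bcl2 was 1.27, 0.98 and 0.16, the interaction of Btg2 was 1.62, 0.74 and 0.57, that of Ccng2 was 1.29, 0.75 and 0.22, and the BM genotype difference of Cdkn1b was -0.53, -0.44 and -0.15. With centring, the interaction was 0.31 for Cdkn1a, 0.90 for Cdkn1b (0.43 with quantile normalization), 1.02 for Mdm2 and 0.81 for Trp53, and with a pseudocount of 0.1 it was -0.65 for Gadd45b. The genotype difference with centring in BM was -0.0087 for Gadd45b, -0.16 for Mdm2 and -0.39 for Trp53 (-0.027 without the 100 genes). In PT it was 0.57 for Btg1, 0.71 for Cdkn1a, 0.38 for Cdkn1b, 0.80 for Gadd45a (0.083 without the 100 genes), 0.86 for Mdm2 (0.0015 with quantile normalization, 0.14 without the 100 genes), 0.42 for Trp53 and 0.049 for Ccng2. With 1 library left out, estimates that crossed 0 ranged in MRP8-Bcl2 between sites as Cdkn1a -0.58 to 1.82, Mdm2 -0.11 to 0.27 and Ccng2 -0.15 to 1.69; in the interaction as Btg1 -0.45 to 0.60, Btg2 -0.81 to 0.78, Gadd45a -0.18 to 0.91, Gadd45b -0.52 to 0.99 and Ccng2 -1.33 to 0.52; between genotypes in BM as Gadd45b -0.028 to 1.29, Trp53 -0.085 to 0.72 and Ccng2 -1.54 to 0.31; and in PT as Cdkn1a -1.46 to 0.94, Gadd45a -0.74 to 0.29 and Mdm2 -0.46 to 0.091. The cause of these shifts was not tested. TPM keeps no read totals, so a limit set by depth could not be given.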
